A study of Mus musculus with 5 samples.

Results

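The mitochondrial genome genes are the 37 rows that the deposited count table places on chromosome M, out of 40624 genes in all, and they were chosen by that position alone. They comprise 13 mRNAs, 2 ribosomal RNAs (rRNAs) and 22 transfer RNAs (tRNAs), each of which was also found by name in a mouse reference annotation with the same length. The study asked how the atrial transcriptome differs when the cardiac transcription factor Nkx2-5 is removed from atrial muscle. RNA sequencing was done on whole atria of C57BL/6 mice at postnatal day 1. The 3 controls, numbered 2, 4 and 6, carried SLN-Cre and 1 floxed copy of Nkx2-5 (Nkx2-5-flox/+), and the 2 mutants, numbered 5 and 7, carried SLN-Cre and Nkx2-5-flox/flox. Both groups thus carried the Cre recombinase, which is driven by Sln, the gene of sarcolipin of atrial muscle cells, so deletion is expected in those cells only and the other cells of the tissue keep the gene. The controls have 1 floxed allele and no group without Cre is among the samples. The sources used here do not give whether a library came from 1 animal or from pooled animals, and p-values measure the spread between these libraries.

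Mitochondrial DNA is a small circular genome that codes for proteins of the respiratory chain and for the rRNAs and tRNAs that translate them inside the organelle. All its proteins are core subunits of complexes I, III, IV and V, which pump protons or use the proton gradient to make ATP, and all other subunits come from the nucleus. Both strands are copied into long transcripts by the polymerase POLRMT with the factors TFAM and TFB2M. The tRNAs lie between the other genes, and cutting them out releases the mRNAs and rRNAs, most of which then receive a short poly(A) tail. Heart muscle is dense in mitochondria, and its content of mitochondrial RNA increases as the muscle matures around birth.

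The gene sequences show how tightly these genes are packed, which bears on how reads are assigned to them. The mouse mRNAs are nearly all reading frame, and 3 of the 13 have a length that is not a multiple of 3 and stop short of a full stop codon, which the poly(A) tail completes. The last 30 bases of these 3 mRNAs and of 2 mRNAs with a complete stop codon are shown 5′ to 3′ from the GENCODE vM21 transcripts of the GRCm38 build, with the end of the frame in capitals.
mt-Co3: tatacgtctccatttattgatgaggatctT
mt-Nd4: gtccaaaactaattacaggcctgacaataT
mt-Cytb: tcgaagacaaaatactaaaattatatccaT
mt-Co2: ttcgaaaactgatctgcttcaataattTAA
mt-Nd3: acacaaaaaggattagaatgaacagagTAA

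Neighbouring genes also share bases in that reference: mt-Atp8 and mt-Atp6 share 43, mt-Nd4l and mt-Nd4 share 7, and mt-Nd5 and mt-Nd6, which are read from opposite strands, share 14. The table gives both coordinates for 6 members, on the mm9 build. It places mt-Co1 at chrM:5328-6872, mt-Co2 at chrM:7013-7696, mt-Atp8 at chrM:7766-7969, mt-Atp6 at chrM:7927-8607, mt-Nd4l at chrM:9877-10173 and mt-Nd6 at chrM:13552-14070 on the minus strand. On the plus strand lie 12 mRNAs and 14 tRNAs, and on the minus strand lie mt-Nd6 and 8 tRNAs.

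The tRNA genes are short, and the 4 with the most direct bearing on the results are shown with the anticodon in capitals: mt-Tp, the only member called, mt-Te and mt-Ts1, which have the next smallest adjusted p-values with higher mutant means among tRNAs, and mt-Tl1, the plus-strand tRNA gene with the most counts.
mt-Tp: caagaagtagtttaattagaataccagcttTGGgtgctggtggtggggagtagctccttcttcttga
mt-Te: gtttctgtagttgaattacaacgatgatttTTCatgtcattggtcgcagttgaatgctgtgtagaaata
mt-Ts1: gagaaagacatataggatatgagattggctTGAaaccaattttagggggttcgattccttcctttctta
mt-Tl1: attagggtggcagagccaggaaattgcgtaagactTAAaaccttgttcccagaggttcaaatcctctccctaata

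Gene counts totalled 58501214, 58884453 and 60899334 in controls 2, 4 and 6, 78841494 in mutant 5 and 69648013 in mutant 7. Nkx2-5 itself read 76.8, 72.1 and 71.3 CPM (counts scaled to a common library size) in the controls, 5.79 CPM in mutant 5 and 5.21 CPM in mutant 7, in the direction of the labels. Atrial muscle markers summed to between 56941 and 61803 CPM in the 5 libraries, and 6 of the 8 did not pass the test. Nppa was lower and Bmp10 higher in the mutants. Markers of other cells, summed by cell type, were present in every library. Single markers could be absent: the brown fat marker Ucp1 read 0 CPM in the controls and 0.0128 and 0.0146 CPM in mutants 5 and 7. Of the 2 tested brown fat markers, Cidea was called higher and Cox7a1 lower. The calls among markers stand beside 3.02% of all tested genes called higher and 3.57% called lower (edgeR adjusted p under 0.05). Fibroblast markers summed to 7509, 6716 and 6477 CPM in the controls and 5259 and 5480.4 CPM in mutants 5 and 7 (2 of 6 lower). Erythroid markers summed to 1269.8, 1114, 1461, 1787 and 1752.5 CPM in the same order (1 of 8 tested higher), and leukocyte markers to 116, 115, 134, 144 and 147 CPM (1 of 5 higher). Ventricular muscle markers summed to 152, 89.4 and 248 CPM in controls 2, 4 and 6, 77.4 CPM in mutant 5 and 58.3 CPM in mutant 7. Of these 4 markers Hey2 was called higher. Myl3 read 124, 67.2 and 145 CPM in the controls against 22.3 and 15.4 CPM and did not pass (edgeR adjusted p = 0.0764). In bulk tissue a change in the number of cells of a type and a change in RNA per cell cannot be told apart.

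Mitochondrial RNA made up 4.91%, 5.89% and 5.15% of gene counts in controls 2, 4 and 6, 4.81% in mutant 5 and 7.62% in mutant 7. Mutant 5 was thus the lowest and mutant 7 the highest of the 5 libraries, and the controls lay between them. The control mean was 5.32% ± 0.510 (SD, n = 3) and the mutant mean 6.22% ± 1.99 (SD, n = 2). The difference of 0.900 percentage points had p = 0.7 in a two-sided exact permutation test, whose smallest possible p in this design is 0.1. Counting error is far smaller than these gaps: the 95% Wilson interval was 4.81% to 4.82% in mutant 5 and 7.61% to 7.63% in mutant 7. Of the mitochondrial counts, mRNAs held 97.9% to 98.9%, rRNAs 0.827% to 1.88% and tRNAs 0.228% to 0.261%. The libraries were made from poly(A) RNA, so rRNA and tRNA counts cover what that selection kept and not the whole of these RNAs.

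Across the 29 members that passed the filter on low counts, 1 rose in the mutants and none fell at an adjusted p under 0.05 (edgeR quasi-likelihood test with Benjamini-Hochberg adjustment over 17835 genes). The gene that rose was mt-Tp, the proline tRNA gene. Of all tested genes, 6.58% were called, 3.02% higher and 3.57% lower. mt-Tp was also the only member with an unadjusted p under 0.05, a level reached by 20.8% of all tested genes. All 13 mRNAs had a positive log2 fold change, with a median of 0.27, beside a median of 0.01 over all tested genes, of which 51.3% were positive. None of the 13 passed, and their adjusted p-values ran from 0.270 to 0.771 in the edgeR test. The standard errors of the mRNAs, 0.11 to 0.48 with a median of 0.21, compare with a median of 0.12 over all tested genes. The mRNAs lie on 1 molecule and are cut from shared transcripts, so their shared sign is not 13 separate observations. Without mutant 7 the median log2 fold change of the mRNAs was -0.17, with 4 of 13 positive. Without mutant 5 it was 0.55, with all 13 positive (edgeR).

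**Figure D1:**
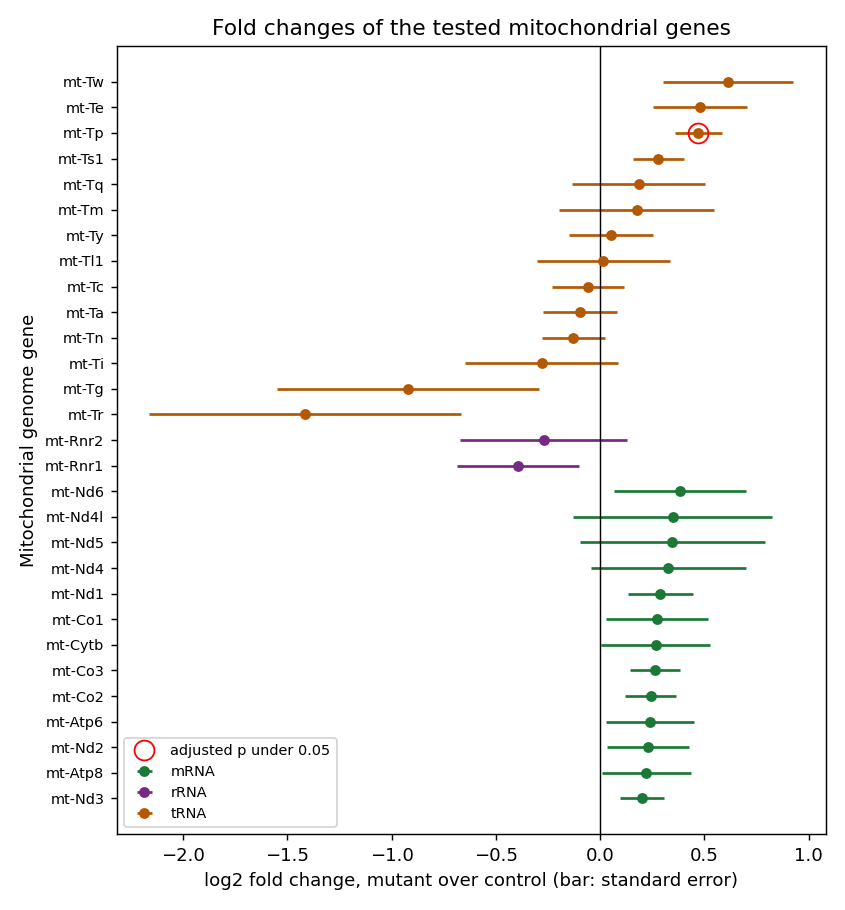
The log2 fold change of each of the 29 tested mitochondrial genes, mutant over control, is plotted on the horizontal axis with its standard error as a bar, and genes are listed by kind on the vertical axis. All 13 mRNAs lie between 0.20 and 0.38, both rRNAs lie below 0, and only mt-Tp, at 0.47, carries the red ring of an adjusted p under 0.05.

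The subunits of complex I, the NADH dehydrogenase that feeds electrons into the chain, are encoded by 7 of the mRNAs. mt-Nd1 read 3204, 3779 and 3123 CPM in the controls, in the order 2, 4 and 6, with 3412 CPM in mutant 5 and 4813 CPM in mutant 7, a log2 fold change of 0.29 ± 0.16 (SE, edgeR adjusted p = 0.361). Mutant 5 lay inside the control range for this gene and mutant 7 above it. mt-Nd2 had 1528, 1907 and 1583 CPM in the controls, 1551 CPM in mutant 5 and 2369 CPM in mutant 7, with a log2 fold change of 0.23 ± 0.20 (edgeR adjusted p = 0.591). mt-Nd3 was the steadiest of the 7, with 919.9, 969.6 and 862 CPM in the controls and 934.5 and 1174 CPM in mutants 5 and 7 (0.20 ± 0.11 on the log2 scale, edgeR adjusted p = 0.332).

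The genes downstream of mt-Nd3 on the plus strand varied more. mt-Nd4 read 2597, 3726 and 2978 CPM in the controls, 2521 CPM in mutant 5 and 5256 CPM in mutant 7, and its log2 fold change was 0.33 ± 0.37 (edgeR adjusted p = 0.708). mt-Nd4l, whose frame overlaps that of mt-Nd4 on a shared mRNA, read 219, 351 and 270.5 CPM in the controls and 210.4 and 503 CPM in mutants 5 and 7. mt-Nd5 read 1794, 2679 and 2261 CPM in the controls and 1698 and 4010.2 CPM in mutants 5 and 7. For these 3 genes mutant 5 was the lowest of the 5 libraries and mutant 7 the highest. Their mutant libraries differed by 2.09-fold for mt-Nd4, 2.39-fold for mt-Nd4l and 2.36-fold for mt-Nd5, beyond the 1.43-fold, 1.60-fold and 1.49-fold span of the controls. The log2 fold changes of mt-Nd4l and mt-Nd5 were 0.35 ± 0.48 and 0.35 ± 0.44 (edgeR adjusted p = 0.771 and 0.750).

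The only mRNA gene on the minus strand is mt-Nd6, the complex I subunit whose mRNA is reported in human cells to carry no poly(A) tail. It read 582, 814 and 672 CPM in the controls and 624 and 1174 CPM in mutants 5 and 7, a log2 fold change of 0.38 ± 0.32 (edgeR adjusted p = 0.589). Mutant 5 fell inside the control range. Per 100 counts of the other mRNAs, mt-Nd6 had 1.23, 1.43 and 1.37 counts in the controls, 1.32 in mutant 5 and 1.55 in mutant 7 (exact permutation p = 0.5, adjusted over 3 ratios 0.7). The kit used does not mark the strand of a read, so reads of mt-Nd6 and of plus-strand RNA over the same bases cannot be told apart.

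mt-Cytb encodes cytochrome b, the only subunit of complex III made in mitochondria. Its level was 3794, 4896 and 4143 CPM in the controls, 3741 CPM in mutant 5 and 6547 CPM in mutant 7. Mutant 5 was again just under the control range, and the log2 fold change was 0.27 ± 0.26 (edgeR adjusted p = 0.651).

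The subunits of complex IV, cytochrome c oxidase, had the highest levels. mt-Co1, the subunit that binds oxygen, read 13313, 16490.2 and 14068 CPM in the controls and 12939 CPM in mutant 5 and 22359.9 CPM in mutant 7. Its log2 fold change was 0.27 ± 0.25 (edgeR adjusted p = 0.620), with mutant 5 below and mutant 7 above all controls. mt-Co2, which receives electrons from cytochrome c, read 7031, 7360.4 and 6677 CPM in the controls and 7099 and 9509 CPM in the mutants (0.24 ± 0.12 on the log2 scale, edgeR adjusted p = 0.314). mt-Co3 read 8243, 8976 and 8236 CPM in the controls and 8718 and 11640.1 CPM in mutants 5 and 7. With a log2 fold change of 0.26 ± 0.12, mt-Co3 had the smallest adjusted p of the mRNAs, 0.270 by edgeR. For mt-Co2 and mt-Co3 mutant 5 lay within the controls.

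The ATP synthase subunits of complex V are encoded by mt-Atp8 and mt-Atp6, which overlap on 1 mRNA. mt-Atp8 read 1091, 1231 and 1115 CPM in the controls and 1001 and 1671 CPM in mutants 5 and 7, and mt-Atp6 read 3763, 4405 and 3887 CPM in the controls and 3589 and 5897 CPM in the mutants. In both genes mutant 5 was the lowest library and mutant 7 the highest. The log2 fold changes were 0.22 ± 0.21 for mt-Atp8 and 0.24 ± 0.21 for mt-Atp6 (edgeR adjusted p = 0.643 and 0.607).

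**Figure D2:**
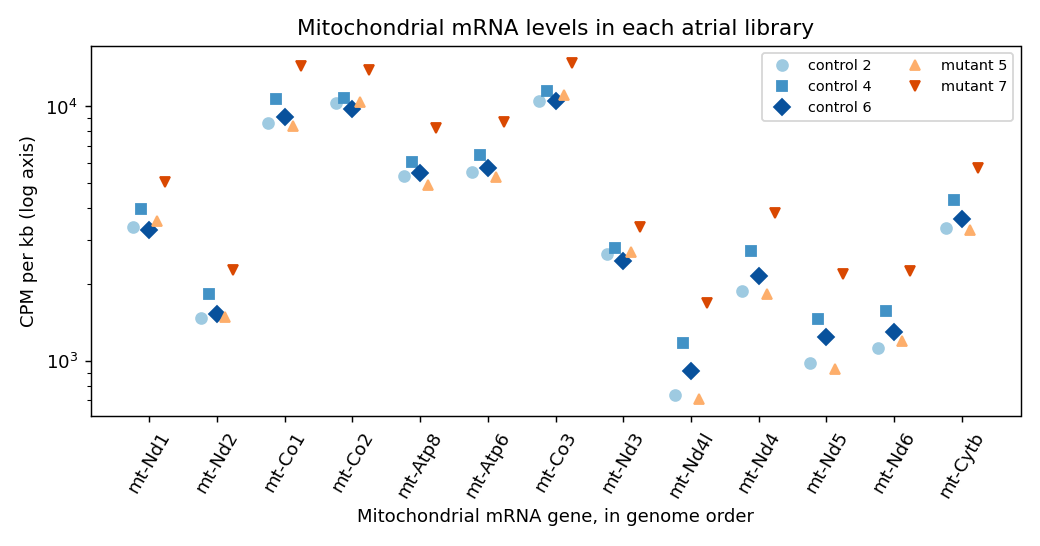
The level of each mitochondrial mRNA in CPM per kb of gene length is plotted on a log axis, in genome order, with 1 marker per library. Mutant 7 is the highest marker for all 13 mRNAs, and mutant 5 is under all controls for 7 of them.

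Per kb of gene length the control means fell into steps. mt-Co3 (10823 ± 542 CPM per kb, SD, n = 3), mt-Co2 (10267 ± 499.8) and mt-Co1 (9465 ± 1074) were highest, and their control ranges overlapped in that order. mt-Atp6 and mt-Atp8 followed at 5900.4 ± 500.5 and 5616 ± 366 CPM per kb, below every control value of mt-Co1. mt-Cytb and mt-Nd1 came next at 3739 ± 492 and 3520.3 ± 374 CPM per kb, then mt-Nd3 and mt-Nd4 at 2636 ± 155 and 2250.1 ± 417 CPM per kb. The lowest were mt-Nd2 at 1611 ± 197, mt-Nd6 at 1328 ± 225, mt-Nd5 at 1231 ± 243 and mt-Nd4l at 944 ± 224 CPM per kb. The controls of mt-Nd2 lay below all those of mt-Nd4, and the last 3 each overlapped the gene before. In this order the complex IV subunits came first and 4 complex I subunits last. The order rests on how reads shared with nuclear copies were counted. With the counts of those copies added, an alternative chosen after the data had been seen, mt-Atp6 stood at 10351.7 ± 853 CPM per kb, above the mean of mt-Co1 (9851 ± 1120.0), and mt-Nd4l at 1688 ± 389 CPM per kb, above the means of mt-Nd2, mt-Nd6 and mt-Nd5. These values were 1.75 and 1.79 times those without the copies.

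Ratios between mRNAs ranged from nearly fixed to widely spread over the 5 libraries. Per kb, mt-Atp8 over mt-Atp6, which share an mRNA, ran 0.968, 0.933 and 0.958 for controls 2, 4 and 6, then 0.931 for mutant 5 and 0.946 for mutant 7. This spread of 1.04-fold was the tightest of all 78 pairs of mRNAs. The ratio of mt-Nd4l to mt-Nd4, which share the other mRNA, ran 0.392, 0.437 and 0.421, then 0.387 and 0.444 in the same order, a spread of 1.15-fold. Some genes on separate mRNAs were held as tightly. mt-Co1 over mt-Cytb ran 2.60, 2.49 and 2.51, then 2.56 and 2.53 (1.04-fold), and mt-Co2 over mt-Co3 spread by 1.05-fold. The 76 pairs on separate mRNAs had a median spread of 1.29-fold, with mt-Co3 over mt-Atp6 at 1.23-fold and mt-Nd6 over mt-Nd5 at 1.26-fold. The widest were mt-Nd3 over mt-Nd4l at 1.90-fold and mt-Nd5 over mt-Nd3 at 1.88-fold. For mt-Nd5 over mt-Nd3 the values ran 0.372, 0.527 and 0.5005, then 0.347 and 0.652. In this ratio and in that of mt-Nd4l to mt-Nd4 the mutants were the lowest and the highest library, so the groups overlapped fully.

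The excess in mutant 7 was uneven along the genome. Against the control mean, the log2 deviation of mutant 7 had a median of 0.55 over the 13 mRNAs and ran from 0.36 for mt-Nd3 to 0.84 for mt-Nd4l. Mutant 5 had a median of -0.16 and ran from -0.41 for mt-Nd4l to 0.04 for mt-Co3. The genes with the widest gap between the mutants were also those with the widest spread among controls: across the 13 genes, which are not independent, the Spearman correlation of the 2 spreads was 0.918. Control 4 was the highest control for all 13 mRNAs and control 2 the lowest control for 9. The median deviations of controls 2, 4 and 6 were -0.13, 0.17 and -0.05. Control 2 and mutant 5 were thus both low at mt-Nd4, mt-Nd4l and mt-Nd5, and control 4 and mutant 7 both high, so each genotype held 1 low and 1 high library.

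**Figure D3:**
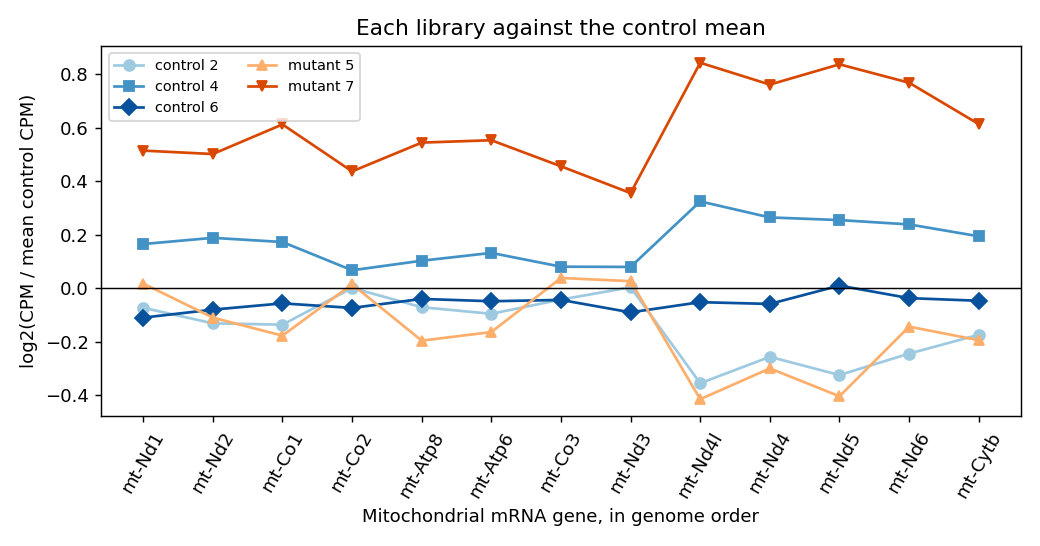
Each line follows 1 library across the 13 mitochondrial mRNAs in genome order, as the log2 of its CPM over the mean control CPM, with 0 as the control mean. Mutant 7 lies above all other libraries at every gene, and the 5 lines spread furthest at mt-Nd4l, mt-Nd4 and mt-Nd5.

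Several measured features differed between the mutant libraries beside this gap. Mutant 7 had Xist at 998 CPM and Ddx3y at 0.0293 CPM, whereas mutant 5 had Xist at 1.37 CPM and Ddx3y at 75.2 CPM, so the libraries differ in sex. Among the controls, control 4 had Ddx3y at 79.6 CPM, and controls 2 and 6 had Xist at 473 and 609 CPM. The Y-linked transcript was thus at a high level in mutant 5 and control 4 only. Endothelial markers summed to 1297, 1338 and 1451 CPM in the controls, 1412 CPM in mutant 5 and 1699.6 CPM in mutant 7 (0 of 6 called). Reads outside annotated genes, as a percentage of all entries of the table, were 4.26, 4.70 and 6.03 in the controls and 3.97 and 5.75 in mutants 5 and 7. The part of these features in the mitochondrial levels was not tested.

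The 2 rRNA genes pointed the other way from the mRNAs. mt-Rnr1, the RNA of the small mitochondrial ribosomal subunit, read 195, 179 and 319 CPM in the controls and 167 and 184 CPM in mutants 5 and 7, a log2 fold change of -0.39 ± 0.29 (edgeR adjusted p = 0.543). mt-Rnr2, of the large subunit, read 335, 376 and 641 CPM in the controls and 288 and 458 CPM in the mutants, a log2 fold change of -0.27 ± 0.40 (edgeR adjusted p = 0.787). Control 6 was the highest library for both rRNAs and for the summed ventricular markers, whose part in the rRNA levels was not tested. Without control 6 the log2 fold changes were -0.09 for mt-Rnr1 and 0.07 for mt-Rnr2. Counts on the rRNA genes per 100 mRNA counts were 1.10, 0.963 and 1.92 for the controls, 0.947 for mutant 5 and 0.836 for mutant 7 (exact permutation p = 0.4, adjusted over 3 ratios 0.7).

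The tRNA genes split by strand. The 8 minus-strand tRNA genes held 88.9% to 92.5% of all mitochondrial tRNA counts in the 5 libraries, with 28 to 5029 counts a gene. Of the 14 plus-strand tRNA genes, mt-Tl1 had 610 to 1081 counts, and the other 13 had 0 to 65. The 8 tRNA genes that did not pass the filter (mt-Tf, mt-Tv, mt-Td, mt-Tk, mt-Th, mt-Ts2, mt-Tl2 and mt-Tt) all lie on the plus strand and had 0 to 16 counts. Plus-strand tRNAs are cut out from between mRNAs of the same strand, whereas the minus-strand tRNA genes lie opposite plus-strand RNA. A mature tRNA has no poly(A) tail and is shorter than the usual insert of such a library, so these counts need not be mature tRNA.

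**Figure D4:**
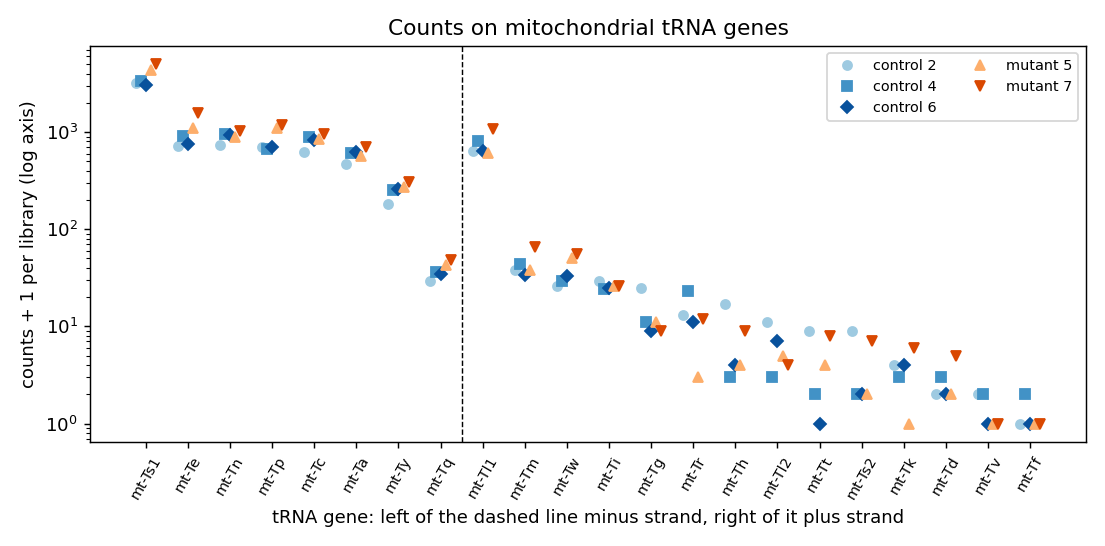
Counts plus 1 on each of the 22 mitochondrial tRNA genes are plotted on a log axis, with 1 marker per library and the minus-strand genes left of the dashed line. Minus-strand genes range from 28 to 5029 counts, and the plus-strand genes other than mt-Tl1 stay at or under 65.

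mt-Tp, the proline tRNA gene next to the control region, had 694, 662 and 702 counts in the controls and 1112 and 1192 in mutants 5 and 7. Scaled for depth, these were 11.8, 11.1 and 11.4 CPM in the controls and 14.2 and 17.5 CPM in the mutants, so both mutants lay above all controls. The log2 fold change was 0.47 ± 0.11 (SE) with an edgeR adjusted p of 0.0418. In the authors' deposited table the log2 ratio of mt-Tp was 0.44 with an adjusted p of 0.0048, from these same libraries. The call was lost without control 2, 4 or 6 or mutant 7 (highest adjusted p = 0.177, edgeR) and in limma-voom (0.0516). Its controls spanned 1.06-fold and its mutants 1.23-fold, beside 1.09-fold to 1.60-fold and 1.26-fold to 2.39-fold for the mRNAs, a difference that was not tested.

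mt-Ts1, the serine tRNA gene that lies opposite the end of mt-Co1 and shares 3 bases with it, had the most tRNA counts, 3163, 3389 and 3036 in the controls and 4340 and 5029 in mutants 5 and 7. In CPM these were 53.6, 57.0 and 49.3 against 55.6 and 73.7, a log2 fold change of 0.28 ± 0.12 (edgeR adjusted p = 0.256), with mutant 5 among the controls. mt-Te, the glutamate tRNA gene between mt-Nd6 and mt-Cytb, read 12.3, 15.3 and 12.3 CPM in the controls and 14.0 and 23.1 CPM in the mutants (0.48 ± 0.23, edgeR adjusted p = 0.306). mt-Tl1, the leucine tRNA gene between mt-Rnr2 and mt-Nd1, read 10.9, 13.7 and 10.4 CPM in the controls, 7.82 CPM in mutant 5 and 15.8 CPM in mutant 7, with a log2 fold change of 0.01 ± 0.32 (edgeR adjusted p = 0.988). Like 7 of the 13 mRNAs, which lie on both sides of mt-Nd3, mt-Tl1 was lowest in mutant 5 and highest in mutant 7.

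The 4 tRNA genes around the start of light-strand replication, mt-Ta, mt-Tn, mt-Tc and mt-Ty, are the tRNAs of alanine, asparagine, cysteine and tyrosine. mt-Ta read 7.85, 10.1 and 10.1 CPM in the controls and 7.27 and 10.2 CPM in mutants 5 and 7. mt-Tn read 12.4, 15.9 and 15.2 CPM against 11.4 and 15.1 CPM. mt-Tc read 10.6, 15.1 and 13.4 CPM against 10.9 and 14.1 CPM, and mt-Ty read 3.04, 4.22 and 4.16 CPM against 3.43 and 4.47 CPM. In all 4 genes control 2 and mutant 5 were the 2 lowest libraries, and the log2 fold changes were between -0.13 and 0.05. Mutant 7 was just above the highest control in mt-Ta and mt-Ty and under it in mt-Tn and mt-Tc.

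The tRNA genes with the fewest counts among those tested gave wide errors. mt-Tw (tryptophan) had 25, 28 and 32 counts in the controls and 50 and 55 in mutants 5 and 7, a log2 fold change of 0.61 ± 0.31 (edgeR adjusted p = 0.316). mt-Tg (glycine) had 24, 10 and 8 counts against 10 and 8, and mt-Tr (arginine) had 12, 22 and 10 against 2 and 11, with log2 fold changes of -0.92 ± 0.63 and -1.41 ± 0.75. mt-Ti (isoleucine) had 28, 23 and 24 counts against 25 and 25, mt-Tq (glutamine) 28, 35 and 34 against 42 and 47, and mt-Tm (methionine) 37, 43 and 33 against 37 and 65. Their log2 fold changes were -0.28 ± 0.37, 0.18 ± 0.32 and 0.18 ± 0.37. In CPM the groups did not overlap for mt-Tp, mt-Tw, mt-Ti, mt-Tg and mt-Tr, 5 of the 29 tested members, beside 37.9% of all tested genes. Summed over the 22 genes, tRNA counts per 100 mRNA counts were 0.262, 0.252 and 0.258 for the controls, 0.264 for mutant 5 and 0.231 for mutant 7 (exact permutation p = 0.7, adjusted over 3 ratios 0.7).

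Copies of mitochondrial DNA in the nuclear genome bear on most of the mRNA counts, since reads can match both. Of the 13 mRNAs, 11 had at least 1 annotated nuclear transcript of at least 90% identity over 50 or more bases in the GRCm38 reference, the exceptions being mt-Nd1 and mt-Atp8. An exact copy and a diverged copy are shown by the starts of their transcripts, with any mismatch to the mitochondrial gene in capitals. The first 60 bases of mt-Nd4l and Gm10222 are identical, and the first 120 bases of mt-Co1 and Gm13340 differ at 3 positions.
mt-Nd4l: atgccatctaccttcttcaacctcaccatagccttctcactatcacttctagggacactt
Gm10222: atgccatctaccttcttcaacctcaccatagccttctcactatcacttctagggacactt
mt-Co1: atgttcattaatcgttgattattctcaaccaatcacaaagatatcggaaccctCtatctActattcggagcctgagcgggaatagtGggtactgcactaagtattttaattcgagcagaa
Gm13340: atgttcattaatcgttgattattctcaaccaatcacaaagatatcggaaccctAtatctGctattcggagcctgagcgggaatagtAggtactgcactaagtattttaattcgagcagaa

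Of 5 identical copies on chromosome 1, those with a row in the count table, Gm10222 and Gm10925, carried over 75% as many counts as their mitochondrial genes. Gm10222, identical to 294 of the 297 bases of mt-Nd4l, had 10648, 16406 and 12719 counts in the controls and 13073 and 26732 in mutants 5 and 7, which is 76.4% to 82.4% of the mt-Nd4l counts. Gm10925, identical to 678 of the 681 bases of mt-Atp6, had 168761, 196725 and 180058 counts in the controls, 214191 in mutant 5 and 311186 in mutant 7, 75.1% to 77.3% of the mt-Atp6 counts. The copies followed their mitochondrial genes from library to library, with mutant 7 highest for both. Diverged copies had far fewer counts. Gm13340, 97.6% identical to mt-Co1, had 3.88% to 4.09% of its counts, Gm13341, 95.9% identical to mt-Co2, had 4.83% to 4.97%, and Gm13339, 96.7% identical to part of mt-Nd2, had 1.16% to 1.49%. Gm11407, Gm11408, Gm11410 and Gm11512, copies of mt-Nd5, mt-Nd6, mt-Cytb and mt-Co1, each had at most 0.278%. The alignment_not_unique entry of the count table summed to 0 over the libraries, although the identical copies Gm10222 and Gm10925 held counts. The sources used here do not otherwise give how the authors' counting treated reads with several matches. The levels of mt-Nd4l and mt-Atp6 are therefore uncertain, also in their place in the order of levels. The same holds for mt-Co2, mt-Co3 and mt-Nd4, whose identical copies Gm28661, Gm28437 and Gm28439 have no row in the table. It also holds for mt-Nd3, with the 99.7% identical copy Gm28438, and for mt-Co1, with Gm29216, 99.8% identical over 483 bases. Neither of these copies has a row. Among the tRNAs, mt-Tl1 and mt-Tn matched short stretches of Cep295, a nuclear gene with an mRNA of its own, over 62 and 71 bases at 93.5% and 91.5% identity. Cep295 had 1053 to 1822 counts a library, which were not added to the tRNA genes. Adding the counts of 9 copies to 8 members, an alternative chosen after the data had been seen, left the mRNA median at 0.27 with none of the mRNAs called.

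**Figure D5:**
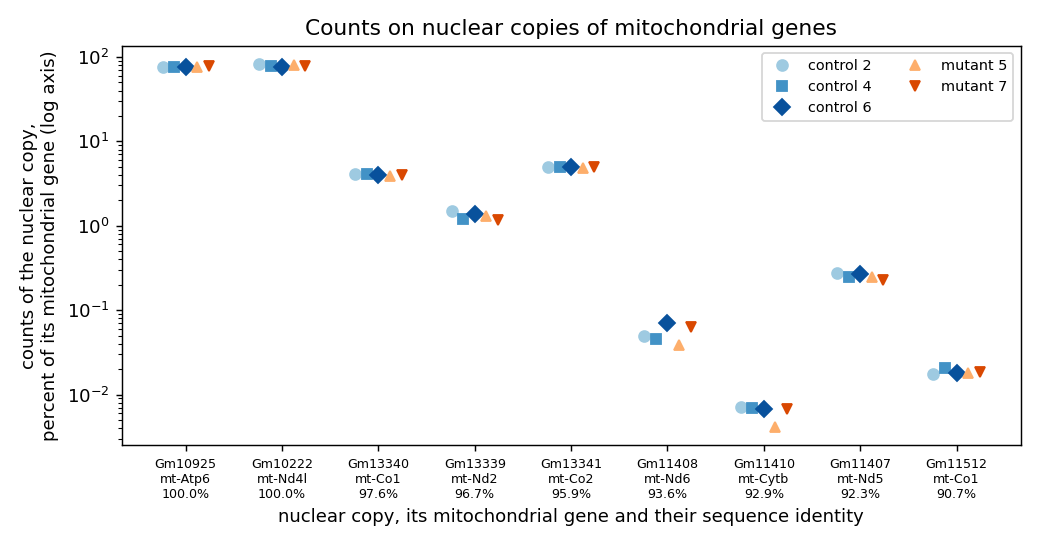
Counts of each nuclear copy that has a row in the table and aligns over at least 200 bases are plotted as a percentage of the counts of its mitochondrial gene on a log axis, with 1 marker per library and the sequence identity under each pair. The identical copies Gm10925 and Gm10222 lie between 75.1% and 82.4%, the other plotted copies lie under 5%, and the 5 libraries nearly coincide.

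The authors' deposited table had the same signs for the mRNAs and rRNAs. In the authors' deposited table the log2 ratios were 0.17 to 0.33 for the 13 mRNAs, -0.43 for mt-Rnr1 and -0.32 for mt-Rnr2. Besides mt-Tp, no member had an adjusted p under 0.05 there; in the authors' deposited table mt-Rnr1 had 0.0948, mt-Ts1 0.154 and mt-Co3 0.156.

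The nuclear genes that build the same complexes were set beside the mitochondrial ones. Of 79 tested nuclear genes of complexes I, III, IV and V, 1 was higher, 3 were lower and 75 did not pass (edgeR adjusted p under 0.05, beside 3.02% higher and 3.57% lower over all genes). Their median log2 fold change was 0.04, and 60 were positive, beside a median of 0.01 and 51.3% positive over all tested genes. Summed CPM per kb of the nuclear complex I genes came to 5866, 5957 and 5472 for the controls, 6074 for mutant 5 and 5942 for mutant 7, so the mutants lay close together. The mitochondrial complex I genes summed to 12192, 15495 and 12873 CPM per kb in the controls, 12416 in mutant 5 and 20654 in mutant 7. The mitochondrial sum over the nuclear sum gave 2.08, 2.60 and 2.35 for the controls, 2.04 for mutant 5 and 3.48 for mutant 7 (exact permutation p = 0.7). In complex IV the same ratio gave 3.01, 3.34 and 3.28 for the controls, 3.11 for mutant 5 and 4.61 for mutant 7 (exact permutation p = 0.4). In complex V it was 1.64, 1.87 and 1.82 against 1.44 and 2.53, and in complex III 1.09, 1.37 and 1.27 against 0.944 and 1.81 (exact permutation p = 0.8 for each). In complexes I, III and V the mutants were the lowest and the highest library. The mitochondrial sums leave out counts on nuclear copies, which would raise the control mean of mt-Atp6 in complex V 1.75-fold. The size of these ratios is therefore uncertain. The nuclear sums of mutants 5 and 7 were 9600 and 9382 CPM per kb in complex IV and 7045 and 6671 in complex V. In complex III they were 3465 and 3154, above the controls at 3047.5, 3115 and 2855.5 (exact permutation p = 0.1). In each complex the nuclear sum was lower in mutant 7 than in mutant 5, whereas the mitochondrial sum was higher.

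Within complex IV the 3 genes called lower were muscle forms of small nuclear subunits, and the 1 called higher was a widely expressed form. Cox6a2 read 666, 658 and 605 CPM in the controls and 488 and 471 CPM in mutants 5 and 7, a fall of -0.42 ± 0.08 (log2, SE, edgeR adjusted p = 0.0150). Cox6a2 is the heart and muscle form, and its widely expressed counterpart Cox6a1 rose by 0.39 ± 0.08 (edgeR adjusted p = 0.0254), from 365, 386 and 355 CPM to 514 and 452 CPM. Cox8b, the muscle form of another subunit, read 165, 142 and 142 CPM in the controls and 96.6 and 106 CPM in the mutants (-0.56 ± 0.08, edgeR adjusted p = 0.0068). Cox7a1, the muscle form of a further subunit, read 142, 137 and 126 CPM against 108 and 98.3 CPM (-0.39 ± 0.07, edgeR adjusted p = 0.0181). Cox8a and Cox7a2, the counterparts of Cox8b and Cox7a1, did not pass (0.23 ± 0.08 and -0.02 ± 0.07, edgeR adjusted p = 0.121 and 0.910). For the 4 called genes the groups did not overlap in CPM, beside 37.9% of all tested genes. The mutants differed less from each other than from the controls. Both traits follow in part from naming these genes by their calls in the same values. Cox8b stayed called in all alternatives run, Cox6a2 lost its call without control 2 or 4, Cox7a1 without control 2, control 4 or mutant 7, and Cox6a1 without control 2, 4 or 6 (highest adjusted p = 0.111, edgeR).

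None of the 36 nuclear complex I genes, 9 of complex III and 18 of complex V passed. The smallest adjusted p-values were 0.0625 for the complex I gene Ndufs1 (0.25 ± 0.07), 0.156 for the Rieske protein gene Uqcrfs1 of complex III (0.23 ± 0.08) and 0.0922 for Atp5a1 of complex V (0.27 ± 0.08), all by edgeR. Complex II has no mitochondrially encoded subunit. Of its 4 genes Sdhb, of the iron-sulfur subunit, rose from 390, 425 and 371 CPM to 538 and 486 CPM (0.37 ± 0.08, edgeR adjusted p = 0.0364). Scaling by library totals alone, or leaving out control 2, 4 or 6 or mutant 5, ended that call (highest 0.142).

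The 21 genes of mitochondrial DNA transcription and replication had no call in either direction and a median of -0.03. Polrmt, the RNA polymerase, read 24.5, 25.5 and 27.8 CPM in the controls and 29.2 and 28.2 CPM in mutants 5 and 7 (0.14 ± 0.08, edgeR adjusted p = 0.377). Tfam, which packages and activates mitochondrial DNA, had a log2 fold change of 0.10 ± 0.07 and Tfb2m, which opens the promoter, -0.11 ± 0.08 (edgeR adjusted p = 0.507 and 0.510). Tfb1m, an rRNA methyltransferase, stood at -0.16 ± 0.14 and the elongation factor Tefm at -0.15 ± 0.10 (edgeR adjusted p = 0.588 and 0.462). Their list summed to 426 CPM in mutant 5 and 428 CPM in mutant 7, a sum in which opposite differences of single genes can cancel. The part of these genes in the gap between the mutants was not tested.

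Of 41 genes of mitochondrial RNA processing, stability and decay, 2 were higher, 1 was lower and 38 did not pass, beside 3.02% higher and 3.57% lower over all genes. Lrpprc, which binds and stabilises mitochondrial mRNAs together with Slirp, read 81.3, 82.0 and 83.3 CPM in the controls and 104 and 98.8 CPM in the mutants (0.30 ± 0.06, edgeR adjusted p = 0.0199). Its partner Slirp, listed as 1810035L17Rik, had a log2 fold change of -0.02 ± 0.08 (edgeR adjusted p = 0.930). Ptcd3, a protein of the small mitochondrial ribosomal subunit, rose from 95.1, 96.2 and 94.9 CPM to 117 and 119 CPM (0.31 ± 0.06, edgeR adjusted p = 0.0146). Mrm1, which methylates the large mitochondrial rRNA, fell from 22.6, 23.0 and 23.3 CPM to 15.95 and 14.8 CPM (-0.58 ± 0.08, edgeR adjusted p = 0.0049). The poly(A) polymerase gene Mtpap stood at 0.27 ± 0.09 and did not pass (0.126). Mrm1 stayed called in all alternatives run, whereas Lrpprc lost its call without control 2 or 4 and Ptcd3 without control 2, 4 or 6 (highest adjusted p = 0.0972, edgeR).

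Of 15 tested nuclear regulators of mitochondrial biogenesis, 1 was higher and 1 lower, beside the same background shares. Ppargc1b, a coactivator of respiratory genes, rose from 12.04, 10.1 and 13.4 CPM to 17.1 and 19.8 CPM (0.64 ± 0.13, edgeR adjusted p = 0.0245). Leaving out control 2, control 4 or mutant 7 ended that call (highest 0.107). Perm1, a muscle regulator listed as 2310042D19Rik, fell from 10.1, 8.52 and 8.74 CPM to 4.04 and 5.52 CPM (-0.94 ± 0.16, edgeR adjusted p = 0.0136). Ppargc1a, the best known coactivator of the family, had a log2 fold change of -0.20 ± 0.10 and did not pass (0.320). Over all pathway lists together, 5 of 160 tested genes were higher and 5 lower, both near the shares over all genes of 3.02% and 3.57%. Without control 2 or without control 4 none of the 160 was called higher and 3 were called lower (edgeR), and 11 were higher in DESeq2.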

How the data were processed

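Poly(A) RNA of whole atria was sequenced in 3 control and 2 mutant libraries made from 250 ng of total RNA each with a TruSeq RNA kit, per the labels' protocols. TopHat2 2.0.4, HTSeq 0.5.4p3, DESeq and the mm9 build are named in the submitters' processing notes, while strand use and the treatment of reads with several matches are not given in the sources used here. The authors deposited raw counts per gene and library, and RPKM values, log2 ratios and p-values per group, which were only copied. The no_feature and ambiguous entries stayed out of library totals (3.97% to 6.03% and 2.31% to 3.18% of all entries). Counts were tested with edgeR 4.0.16 in R 4.3.3 (TMM scaling, filterByExpr with a minimum count of 10, robust quasi-likelihood fit, 17835 genes, adjusted p under 0.05), after a check on simulated data. Standard errors are the absolute log2 fold change over the square root of F. CPM used TMM-scaled totals, and levels between genes were divided by the listed length. Single sums and ratios had two-sided exact permutation tests over the 5 libraries. Nuclear copies were found with blastn 2.17.0. Replicates of a group differed beyond counting noise (chi-square per degree of freedom 20.3 to 85.4), and intervals cover counting error only. Named were all mitochondrial mRNAs and rRNAs, tRNA genes with a mean of at least 10 counts, 9 fixed pathway genes, every called list member, and up to 3 uncalled members a list by smallest p. The members and lists were chosen with earlier results of these data known. Alternatives covered scaling, filters, DESeq2 1.42.0, limma 3.58.1 (voom), a threshold of 0.01, nuclear copies and leaving out each library.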

Additional observations from a re-analysis of the deposited data

How the results depend on the processing

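No paired analysis was possible because the control and mutant libraries share no replicate number. With 2 mutant libraries the fit without mutant 7 or mutant 5 assumes that the lone library varies like the controls, and no design here can give an exact permutation p under 0.1. The mitochondrial genes called higher, 1 as reported, numbered 0 in limma-voom and at an adjusted p under 0.01. They also numbered 0 without control 2, 4 or 6 (edgeR). For the fits without mutant 5 or mutant 7, which each leave 1 mutant library, the number called higher is not given here and only log2 fold changes follow. None was called lower under any alternative. Without mutant 5 the log2 fold changes of the 13 mRNAs had a median of 0.55 and ran from 0.36 to 0.84. Without mutant 7 their median was -0.17 and they ran from -0.42 to 0.03. The mitochondrial share of counts, 0.900 percentage points higher in mutants, ranged from -0.505 without mutant 7 to 2.30 without mutant 5. Under the same omissions tRNA counts per 100 mRNA counts (difference -0.0099) ranged from -0.0267 to 0.0069 and mt-Nd6 per 100 other mRNA counts (0.0919) from -0.0248 to 0.208. The pathway genes called higher (5) numbered 11 in DESeq2, 0 at 0.01 and 0 to 7 without single libraries, and those called lower (5) numbered 2 at 0.01 and 3 to 8.

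Among single genes the sign of the log2 fold change turned when a library was left out. The ranges were -0.11 to 0.50 for mt-Nd2, -0.18 to 0.61 for mt-Co1, -0.20 to 0.54 for mt-Atp8, -0.17 to 0.55 for mt-Atp6, -0.30 to 0.76 for mt-Nd4, -0.42 to 0.84 for mt-Nd4l, -0.41 to 0.84 for mt-Nd5, -0.15 to 0.77 for mt-Nd6 and -0.20 to 0.61 for mt-Cytb, the lowest always without mutant 7. They were -0.65 to 0.075 for mt-Rnr2, -0.59 to 0.44 for mt-Tl1, -0.0058 to 0.35 for mt-Tq, -0.41 to 0.60 for mt-Tm, -0.37 to 0.13 for mt-Ta, -0.35 to 0.059 for mt-Tn, -0.25 to 0.11 for mt-Tc, -0.15 to 0.23 for mt-Ty and -0.091 to 0.046 for Slirp (1810035L17Rik). mt-Tl1 also turned to -0.024 with library totals alone and -0.084 in limma-voom. The cause of these changes was not tested beyond naming the library.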
